A study of Drosophila melanogaster with 62 samples.

Results

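Tpr2 and CG5953 are the first long genes beyond PRE2 on the side away from *dac*, and their contacts were measured by 4C-seq in *Drosophila melanogaster* with and without a gypsy insertion, in a study of a loop between PREs at the *dac* locus. The members are the 1-kb bins of chromosome arm 2L that cover both genes in the count tables, 41 bins of 23514 on 2L and of 137552 in the genome. From the PRE2 viewpoint the bins within 5 kb were left out, which left 40 bins, 15 of Tpr2 and 25 of CG5953. From the gypsy2 viewpoint all 41 were used, 16 of Tpr2 and 25 of CG5953. In the dm6 assembly Tpr2 spans 16491540 to 16507621 on the plus strand and CG5953 spans 16508078 to 16532877 on the minus strand. The genes point towards each other and 456 bases lie between them. The PRE2 viewpoint, at 16487001 to 16488000, lies between Tpr2 and *dac* (16466512 to 16485998, minus strand). The gypsy2 viewpoint, at 16465001 to 16466000, lies beyond the far end of *dac*.

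The groups were embryos labelled gypsy2, embryos labelled gypsy1, embryos titled WT whose genotype field gives a gypsy insertion (called titled WT here), WT embryos, gypsy2 and WT larval imaginal leg discs, and gypsy2 and WT pupal imaginal leg discs, with 3 libraries each. All flies were grown at 20 °C, as the labels state, and each library was counted from both viewpoints. The study's design text speaks of a gypsy insertion and/or a deletion of an enhancer, and enh stands in the column names of gypsy2, so that an enhancer deletion cannot be told apart from the insertion there. The labels do not say where gypsy1 and gypsy2 were inserted. The labels of these libraries give no sex, line or age in hours. Nothing says that the 3 libraries of a group came from separate cultures, so p-values measure the spread between these libraries, which may be technical. The files hold contact counts and no expression, so the labelled tissues were not checked against marker genes.

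A Polycomb response element (PRE) is a stretch of DNA that recruits Polycomb group proteins, which keep genes silent through development, and distant PREs can contact each other and form a chromatin loop. *dac* (dachshund) encodes a transcription factor that patterns the leg and other appendages. gypsy is a retrotransposon whose insulator can block contacts between the DNA on its sides. In 4C-seq, chromatin is cross-linked, cut and ligated, and everything ligated to 1 chosen place, the viewpoint, is sequenced, so the counts along a chromosome are a profile of that place's contacts. Contacts fall with distance along the chromosome. Tpr2 encodes a co-chaperone with tetratricopeptide repeats and a J domain, which works with the Hsp70 and Hsp90 chaperones. CG5953 is named in the annotation by its number, and the short gene mir-4943, a microRNA precursor, lies within it at 16528375 to 16528491.

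The sequences that bear on the values come from the reference assembly (dm6, plus strand). The first 2 are the ends of HMS-Beagle, an LTR retrotransposon annotated in an intron of CG5953 (16512018 to 16519074, 7057 bases), shown because the counts stop there. Capitals mark the element, at chr2L:16511978-16512037 on the left and chr2L:16519055-16519114 on the right.
left junction of HMS-Beagle: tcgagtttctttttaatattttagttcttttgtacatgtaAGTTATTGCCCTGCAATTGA
right junction of HMS-Beagle: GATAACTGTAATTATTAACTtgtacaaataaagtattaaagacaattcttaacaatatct
The next is the start of the gap between the genes (chr2L:16507622-16507921), shown because the step between the genes was measured across it. Capitals mark the letters GATC.
between Tpr2 and CG5953: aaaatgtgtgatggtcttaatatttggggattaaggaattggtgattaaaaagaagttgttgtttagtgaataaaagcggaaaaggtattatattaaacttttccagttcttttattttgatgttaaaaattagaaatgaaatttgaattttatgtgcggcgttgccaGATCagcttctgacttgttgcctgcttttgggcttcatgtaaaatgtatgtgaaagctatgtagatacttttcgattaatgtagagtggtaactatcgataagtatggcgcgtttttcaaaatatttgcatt
The last 3 hold the GATC sites of the Tpr2 bin 8 kb from PRE2, 1 of the 4 bins described singly below (chr2L:16495121-16495150, chr2L:16495202-16495231 and chr2L:16495911-16495940), with GATC in capitals.
first site: aaatagaaaaccaGATCcttcgttgctcat
middle site: ctttatctgtctgGATCgaaactggtatcc
last site: tgactgtgaactgGATCtagttgggcatga

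The 2 ends of HMS-Beagle carry the same 266 bases, and 7 bins of CG5953 coincide with the element. Across 2L, 15.1% of the 1-kb bins hold no GATC, and 8 of the 41 member bins hold none. From PRE2, 12 of the 40 bins had a mean share under 0.01% of the 2L counts outside 5 kb over the 24 libraries: 7 of them lie in HMS-Beagle, 6 have no GATC (1 of these lies in the element), and none of the 12 is outside both classes. Low bins were also common outside both classes. Of the bins within 500 kb that are not wholly in an annotated element, 156 of 183 without GATC were under 0.01%. So were 263 of 788 with GATC. Of 89 bins that lie wholly within HMS-Beagle copies of 2 kb or more on the 6 chromosome arms, 72 had 0 counts in every pupal library from PRE2. The sources used here do not name the cutting enzyme. These are therefore counts of letters set beside counts of reads, and the part of either in the empty bins was not tested.

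Libraries differed in depth, from 800269 to 25904672 counts in all. Embryo gypsy2 and titled WT libraries held 14352639 to 25904672 counts and embryo gypsy1 and WT libraries 800269 to 1466765, so that depth moves with genotype where embryo gypsy2 is set against WT but not where it is set against titled WT. The larval libraries held 2274115 to 6456560 and the pupal libraries 9531010 to 18297507. The share of 2L counts within 5 kb of PRE2, which is left out of the denominators below unless stated, was 65.0% to 76.8% in embryo gypsy2, 38.9% to 45.9% in gypsy1, 61.6% to 74.5% in titled WT and 37.2% to 42.1% in WT. It was 38.0% to 51.6% in larval gypsy2 and 31.7% to 33.9% in larval WT, and 50.5% to 55.5% in pupal gypsy2 and 48.0% to 52.6% in pupal WT. The lowest library held 14906 counts in Tpr2 and 12517 in CG5953 when viewed from PRE2, and 5118 and 5298 when viewed from the gypsy2 viewpoint, so the spread between libraries and not counting error limits the precision. In 2 bins described below, larval WT replicate 2 stood apart from the other larval WT libraries from PRE2, and results that rest on it are given with and without it.

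From PRE2, Tpr2 took a larger share of the contacts in gypsy2 than in WT at all 3 stages, and with this denominator the shares of the 2 genotypes did not overlap at any stage. The share is the percentage of the 2L counts outside 5 kb of the viewpoint. In embryos it was 4.76%, 4.77% and 4.82% in gypsy2, 3.97%, 3.96% and 4.13% in titled WT, and 3.85%, 4.28% and 4.20% in WT. In larval leg discs it was 6.89%, 6.66% and 6.54% in gypsy2 and 4.95%, 5.59% and 5.30% in WT. In pupal leg discs it was 6.27%, 6.54% and 6.84% in gypsy2 and 5.44%, 4.63% and 5.46% in WT. Every gypsy2 library was above every WT library of its stage, and the embryo gypsy2 libraries were also above all 3 titled WT libraries. The mean log2 difference, gypsy2 minus WT, was 0.22 in embryos (0.25 against titled WT), 0.35 in larval discs and 0.34 in pupal discs, each with p = 0.1 in an exact two-sided permutation test, the smallest that 3 libraries against 3 can give. Over the 3 stages the gypsy2 share was 1.23-fold that of WT (log2 0.30, n = 9 and 9), with p = 0.00025 in an exact permutation within stages, the smallest that design can give. With all 2L counts as denominator, viewpoint included, the difference turned to -0.21 (exact permutation p = 0.208), and the share of counts around PRE2 itself, given above, was higher in gypsy2 than in WT in embryos and larval discs. With 10 kb left out, which drops the bins 6 to 10 kb away, it was 0.02 (exact permutation p = 0.787), and as the median over bins it was 0.096 (exact permutation p = 0.361). In embryos alone the Tpr2 difference from WT reversed under these 3 settings, to -0.94, -0.20 and -0.28 (exact permutation p = 0.1 each). Against titled WT it was 0.0012, -0.033 and 0.31 (exact permutation p = 1, 0.4 and 0.1).

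gypsy1 embryos gave Tpr2 shares of 4.12%, 5.19% and 5.26% from PRE2, against 3.85%, 4.28% and 4.20% in WT. The first gypsy1 library lay within the WT range and the others above it (log2 difference 0.23, exact permutation p = 0.3). Between columns of the same number, which pair these libraries, the gypsy1 share was higher in 3 of 3 pairs (exact sign-flip p = 0.25, the smallest that 3 pairs can give). The spread between gypsy1 libraries (SD 0.64, n = 3) was wider than that of the other embryo groups, whose SDs were 0.029 in gypsy2, 0.091 in titled WT and 0.23 in WT.

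CG5953, beyond Tpr2, differed less between the genotypes, and its direction was not the same at all stages. From PRE2 its share was 3.56%, 3.74% and 3.67% in embryo gypsy2, 3.58%, 3.60% and 3.78% in gypsy1, 3.65%, 3.66% and 3.76% in titled WT and 3.23%, 3.21% and 3.51% in WT. In larval discs it was 4.56%, 4.57% and 4.24% in gypsy2 and 4.03%, 3.69% and 4.27% in WT. In pupal discs it was 4.46%, 4.29% and 4.55% in gypsy2 and 4.61%, 4.72% and 4.86% in WT. Embryo gypsy2 and gypsy1 libraries lay above every WT library, gypsy2 and titled WT libraries overlapped, larval gypsy2 and WT libraries overlapped, and pupal gypsy2 libraries lay below every WT library. The log2 differences were 0.14 for embryo gypsy2 and 0.14 for gypsy1 against WT (p = 0.1 each), -0.01 for gypsy2 against titled WT (p = 0.6), 0.16 in larval discs (p = 0.2) and -0.09 in pupal discs (p = 0.1), all by exact permutation. Over stages the difference was 0.07 (exact permutation within stages, p = 0.120, n = 9 and 9). Its direction and its side of the threshold turned with the setting: it was -0.45 with all 2L counts as denominator (exact permutation p = 0.00175) and -0.026 with counts over 200 kb away (p = 0.644, exact permutation), against 0.15 with counts within 500 kb (exact permutation p = 0.005), 0.41 as the median over bins (exact permutation p = 0.0045), 0.10 with 10 kb left out (exact permutation p = 0.02975) and 0.095 with capped bins (exact permutation p = 0.03575).

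**Figure D1:**
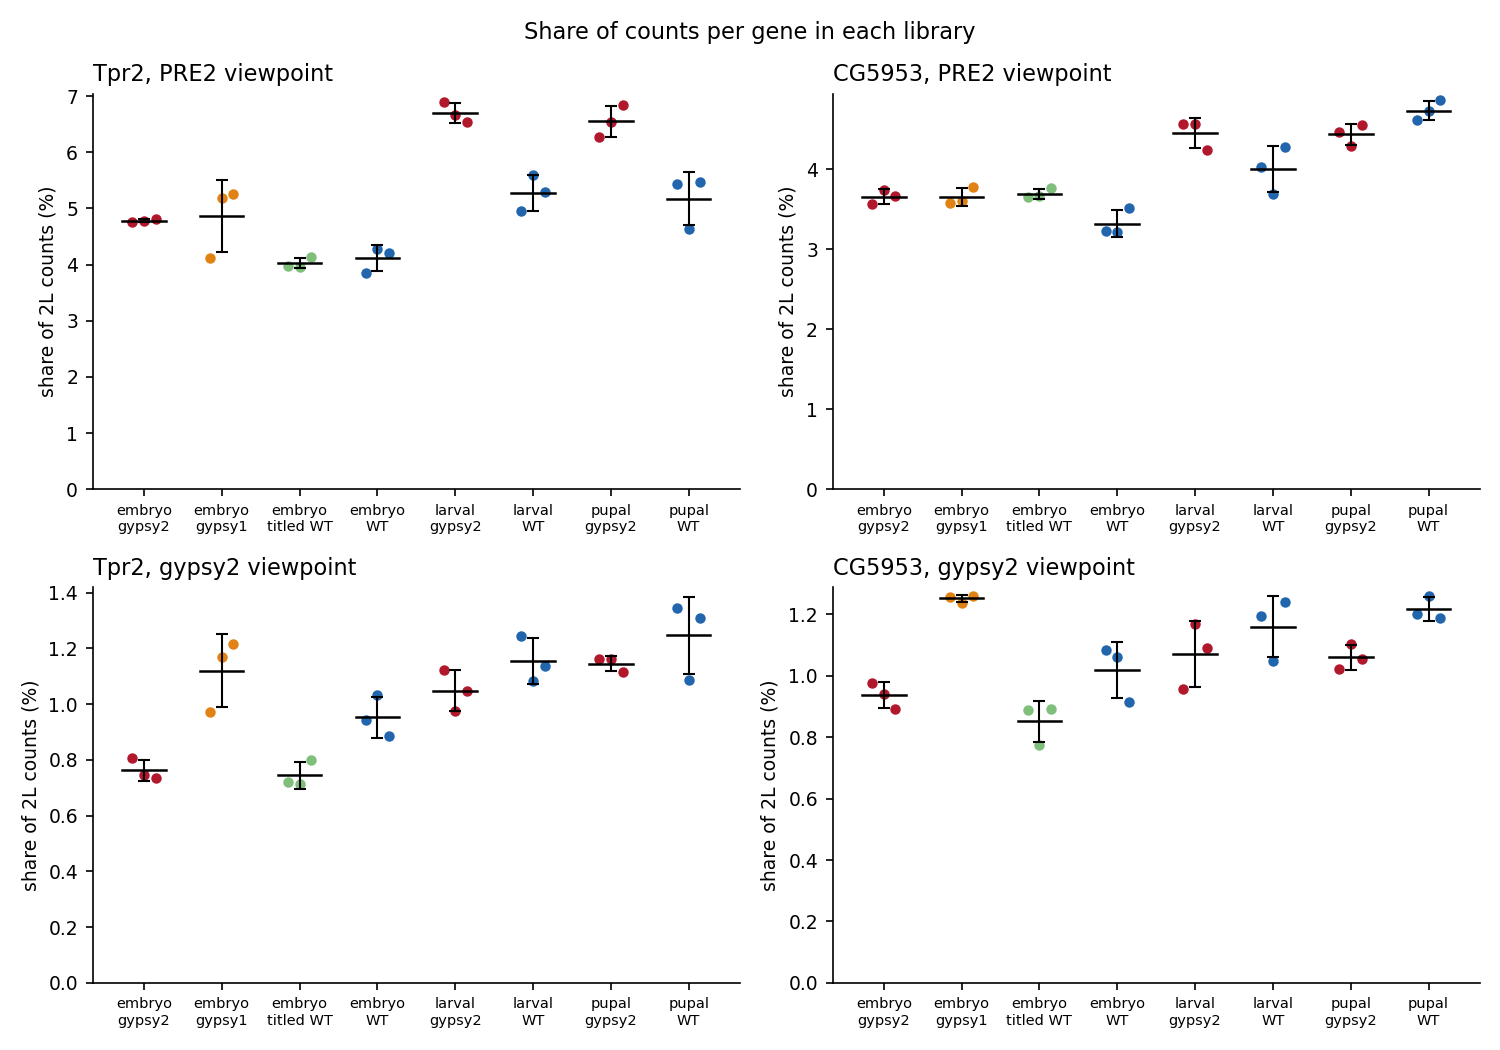
Share of 2L counts outside 5 kb of the viewpoint (%, y axis from 0) in Tpr2 (left) and CG5953 (right), from PRE2 (top) and from the gypsy2 viewpoint (bottom), for each group on the x axis. Points are libraries, and lines and bars are the mean and SD (n = 3). From PRE2 the gypsy2 points for Tpr2 lie above the WT points of each stage, while those for CG5953 lie below WT in pupal discs.

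In WT itself both genes were contacted more by PRE2 in leg discs than in embryos. The mean Tpr2 share was 4.11% ± 0.23 in embryos, 5.28% ± 0.32 in larval discs and 5.18% ± 0.48 in pupal discs (SD, n = 3 each). The mean CG5953 share was 3.32% ± 0.17 in embryos, 4.00% ± 0.29 in larval discs and 4.73% ± 0.12 in pupal discs (SD, n = 3 each). CG5953 libraries of the 3 stages did not overlap and its share was 1.43-fold higher in pupal discs than in embryos (log2 0.51, exact permutation p = 0.1). With all 2L counts as denominator, viewpoint included, its difference between pupal and larval discs turned negative. The share of 2L counts within 5 kb of PRE2 averaged 40.5% in embryo, 32.8% in larval and 50.3% in pupal WT. Tpr2 was higher in larval discs than in embryos without overlap (log2 0.36, p = 0.1) and overlapped between pupal and larval discs (log2 -0.03, p = 0.8, exact permutation). From the gypsy2 viewpoint both genes were also higher in pupal discs than in embryos, by log2 0.38 for Tpr2 and 0.26 for CG5953 (exact permutation p = 0.1 each), with no overlap. Stage moves with depth in WT, since the embryo WT libraries were the shallowest, and the part of depth in these differences was not tested. It also moves with tissue between embryos and leg discs, and the 2 cannot be told apart there. Among the 18 tests of whether the gypsy2 minus WT difference itself differs between stages, none fell under 0.05 after Benjamini-Hochberg adjustment. The lowest were those of CG5953 from PRE2, pupal minus embryo (-0.23, exact permutation p = 0.005, adjusted p = 0.09) and pupal minus larval (-0.25, exact permutation p = 0.01, adjusted p = 0.09).

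From the gypsy2 viewpoint, on the far side of *dac*, the same genes took a smaller share of the counts, and gypsy2 did not lie above WT over the stages. The Tpr2 share was 0.807%, 0.747% and 0.736% in embryo gypsy2, 0.971%, 1.17% and 1.22% in gypsy1, 0.720%, 0.712% and 0.800% in titled WT and 0.942%, 1.03% and 0.885% in WT. It was 1.12%, 0.976% and 1.05% in larval gypsy2 and 1.25%, 1.08% and 1.14% in larval WT. It was 1.16%, 1.16% and 1.11% in pupal gypsy2 and 1.35%, 1.09% and 1.31% in pupal WT. Embryo gypsy2 libraries lay below all WT libraries, but they overlapped with titled WT, and the larval and pupal genotypes overlapped. The CG5953 share averaged 0.937% ± 0.043 in embryo gypsy2, 1.25% ± 0.013 in gypsy1, 0.852% ± 0.066 in titled WT and 1.02% ± 0.091 in WT (SD, n = 3 each). It averaged 1.07% ± 0.11 in larval gypsy2 and 1.16% ± 0.10 in larval WT, and 1.06% ± 0.041 in pupal gypsy2 and 1.22% ± 0.038 in pupal WT (SD, n = 3 each). gypsy1 libraries lay above the WT embryo libraries, embryo gypsy2 libraries lay above titled WT (log2 difference 0.14, exact permutation p = 0.1), and pupal gypsy2 libraries lay below pupal WT. Over stages gypsy2 minus WT was -0.19 for Tpr2 (exact permutation p = 0.00425) and -0.14 for CG5953 (exact permutation p = 0.01075). With titled WT as the embryo control both missed the threshold, at -0.073 (p = 0.159) and -0.058 (p = 0.332) by exact permutation. Without the CG5953 bin 24 kb from PRE2, the CG5953 value was -0.024 (exact permutation p = 0.674).

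In each library PRE2 contacted both genes more than the gypsy2 viewpoint did, over the same 40 bins. For Tpr2 the PRE2 share was 6.77-fold that of the gypsy2 viewpoint in gypsy2 and 4.93-fold in WT (log2 2.76 ± 0.080 and 2.30 ± 0.10, SD, n = 9 each). For CG5953 it was 4.08-fold in gypsy2 and 3.52-fold in WT (log2 2.03 ± 0.12 and 1.82 ± 0.16, SD, n = 9 each). All 9 libraries of each genotype had the same direction, with p = 0.00391 in an exact sign-flip test, the smallest that 9 libraries can give. The bins lie 6 to 45 kb from PRE2 and 27 to 67 kb from the gypsy2 viewpoint, so the viewpoints also differ in distance.

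The step between the genes compares them within a library, as the log2 ratio of the average count of a Tpr2 bin to that of a CG5953 bin, and it was positive in every library from both viewpoints. The library total and the denominator cancel in this measure, which does not remove every effect of depth. Distance does not cancel: Tpr2 bins lie 6 to 20 kb from PRE2 and CG5953 bins 21 to 45 kb. From the gypsy2 viewpoint they lie 27 to 42 and 43 to 67 kb away. From PRE2, 9 of 25 CG5953 bins and 3 of 15 Tpr2 bins had a mean WT share under 0.01%. The part of distance and of these bins in the sign of the step was not tested. From PRE2 it was 1.15, 1.09 and 1.13 in embryo gypsy2, 0.94, 1.27 and 1.22 in gypsy1, 0.86, 0.85 and 0.87 in titled WT and 0.989, 1.15 and 0.996 in WT. It was 1.33, 1.28 and 1.36 in larval gypsy2 and 1.03, 1.33 and 1.05 in larval WT, and 1.23, 1.34 and 1.33 in pupal gypsy2 and 0.97, 0.71 and 0.91 in pupal WT. The gypsy2 libraries lay above WT in pupal discs and above titled WT in embryos, and overlapped with WT in embryos and larval discs, where the high WT library of the larval discs was replicate 2. Over stages gypsy2 minus WT was 0.23 (exact permutation within stages, p = 0.00275). From the gypsy2 viewpoint it was -0.05 (exact permutation, p = 0.518), with group means between 0.35 and 0.75.

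Around the border itself the step was lower and mostly negative. That was not particular to the border. With 5 bins on each side, the embryo WT mean from PRE2 was -1.04 at the bin edge directly before the border, within Tpr2. It was 1.14 directly before the CG5953 bin 24 kb from PRE2. The 5 CG5953 bins at the border include that bin, the gene's highest in WT, and a bin of HMS-Beagle. The 5 Tpr2 bins include the gene's lowest in WT, which holds no GATC. The part of these bins was not tested. Over the 5 bins on each side of the border, the step averaged -0.79 ± 0.080 in embryo gypsy2, 0.030 ± 0.27 in gypsy1, -0.81 ± 0.059 in titled WT and -0.12 ± 0.13 in WT (SD, n = 3 each). It averaged -0.26 ± 0.020 in larval gypsy2 and -0.32 ± 0.033 in larval WT, and 0.19 ± 0.050 in pupal gypsy2 and -0.29 ± 0.26 in pupal WT (SD, n = 3 each). In embryos the deep groups (gypsy2 and titled WT) lay below the shallow groups (gypsy1 and WT) without overlap, and the part of depth was not tested. In pupal discs all gypsy2 libraries were above 0 and all WT libraries below it. Over stages gypsy2 minus WT was -0.043 with these 5 bins (exact permutation p = 0.744) and -0.43 with 3 bins (exact permutation p = 0.03175), against 0.23 over all bins. After subtraction of the step at like distances on the *dac* side of PRE2, gypsy2 was below WT by -0.47 over stages (exact permutation p = 0.00025). The sign of the difference in step thus turned with the bins used. The difference in the Tpr2 share was negative only with the viewpoint in the denominator among the settings tried over stages, and it missed the threshold there, with 10 kb left out and with the median over bins.

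**Figure D2:**
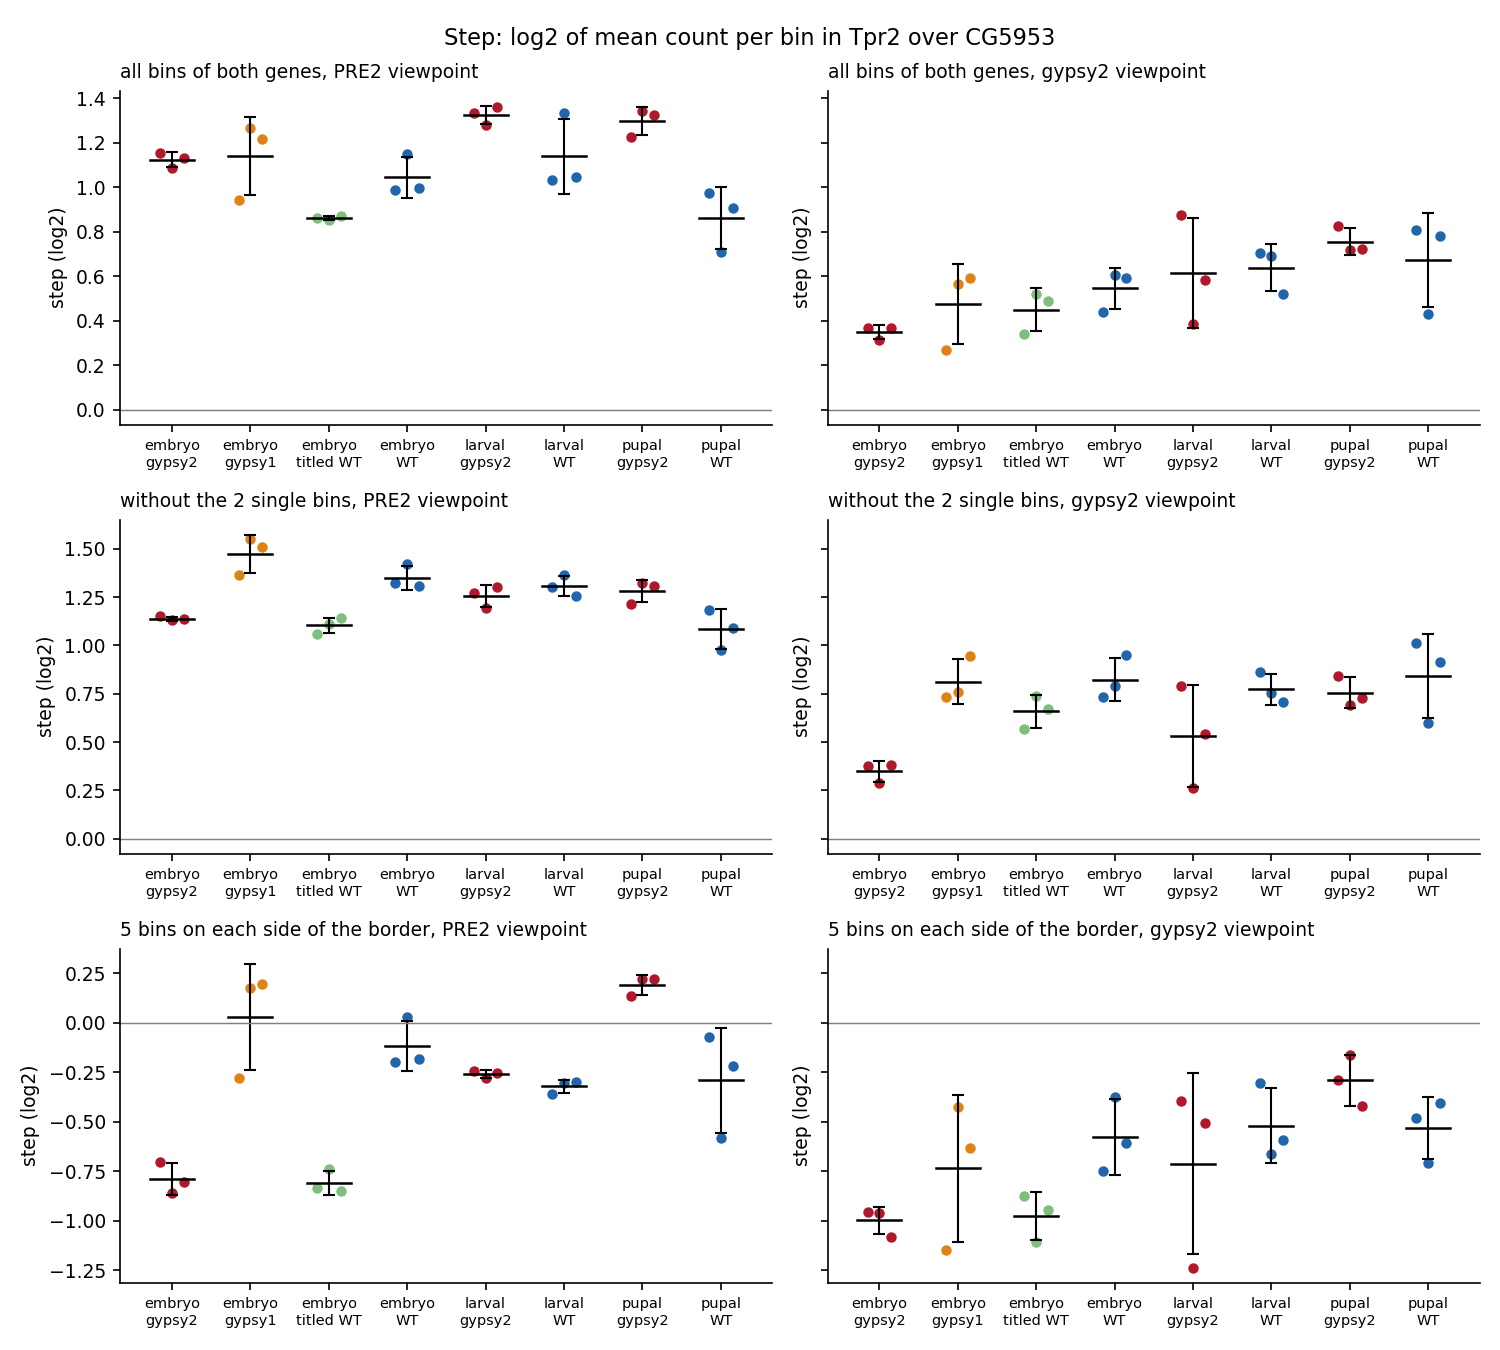
Step between the genes (log2 ratio of the average Tpr2 bin to the average CG5953 bin) per library, from PRE2 (left) and the gypsy2 viewpoint (right). The rows use all bins, all bins but those 8 and 24 kb from PRE2, and 5 bins on each side of the border. Points are libraries and lines and bars the mean and SD (n = 3); the top row lies above 0 throughout, and the bottom row lies mostly below it.

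Resolved by window and bin, the higher Tpr2 share of gypsy2 from PRE2 was found mainly 6 and 8 kb away, while a CG5953 bin was lower. In windows of 8 kb, tested with edgeR's quasi-likelihood test over the 125 windows within 500 kb, the window 16492001 to 16500000 was higher in gypsy2 in all 3 stages. Its log2 fold change was 0.60 ± 0.14 in embryos (adjusted p = 0.00017), 0.44 ± 0.14 in larval discs (adjusted p = 0.0385) and 0.64 ± 0.058 in pupal discs, and 0.41 ± 0.043 in embryos against titled WT (± SE, n = 3 against 3, adjusted p under 0.05 in all). In embryos 2 of the 5 member windows were higher, where 20% of all windows were, and none was lower, where 9.6% were. Against titled WT 1 of 5 was higher and none lower (12% and 13.6% of all windows), in larval discs 1 and none (4.8% and 11.2%), and in pupal discs 3 and none (19.2% and 10.4%). The median log2 fold change of the 5 members was 0.21 in embryos, 0.0070 against titled WT, 0.20 in larval discs and 0.20 in pupal discs, beside 0.016, 0.050, 0.11 and 0.093 over all windows. For gypsy1 no member window was called by edgeR (3.2% of all windows were higher and 6.4% lower), and 1 had an unadjusted p under 0.05. With the column number as a block 2 of 5 were higher and none lower, where 12% and 12.8% of all windows were. The pupal count was 1 without gypsy2 replicate 2, gypsy2 replicate 3 or WT replicate 2, and the embryo count was 4 without WT replicate 3. The larval call was lost, with 0 windows called, without gypsy2 replicate 1, gypsy2 replicate 2, WT replicate 1 or WT replicate 3, each left out alone.

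The Tpr2 bin 8 kb from PRE2 (16495001 to 16496000, in a Tpr2 intron) held more counts in gypsy2 than in WT at each stage. Its share from PRE2 was 0.634%, 0.558% and 0.646% in embryo gypsy2, 0.083%, 0.165% and 0.154% in gypsy1, 0.155%, 0.180% and 0.169% in titled WT and 0.118%, 0.165% and 0.129% in WT. In larval discs it was 0.984%, 0.914% and 0.886% in gypsy2 and 0.201%, 0.621% and 0.254% in WT, and in pupal discs 0.805%, 0.865% and 0.882% in gypsy2 and 0.223%, 0.190% and 0.240% in WT. The gypsy2 libraries lay above all others of their stage, gypsy1 lay in the range of WT and titled WT or below it, and larval WT replicate 2 lay between the larval groups. The edgeR log2 fold change was 2.20 ± 0.14 in embryos, 1.87 ± 0.098 against titled WT and 2.02 ± 0.10 in pupal discs (± SE, n = 3 against 3), all past the threshold under 9 of 9 settings. In larval discs it was 1.37 ± 0.36 (adjusted p = 0.0565), and without WT replicate 2 it was 2.03 (edgeR adjusted p = 0.00014). In larval discs the bin was called under 1 of 9 settings. Seen from the gypsy2 viewpoint the bin was higher in gypsy2 as well, by 1.25 ± 0.24 in embryos, 1.35 ± 0.22 against titled WT and 0.96 ± 0.21 in pupal discs (± SE, edgeR adjusted p = 0.00065, 0.00085 and 0.0389, n = 3 against 3). The pupal call from there held under 2 of 9 settings, and in larval discs the fold change was 1.06 ± 0.31 (± SE, edgeR adjusted p = 0.137).

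The bin 6 kb from PRE2 (16493001 to 16494000, in the same intron as the bin 8 kb away but not next to it) was the Tpr2 bin with the highest mean share in WT. From PRE2 it held 1.02%, 1.09% and 1.202% in embryo gypsy2, 0.753%, 0.894% and 0.913% in gypsy1, 0.742%, 0.716% and 0.775% in titled WT and 0.673%, 0.770% and 0.702% in WT. Larval disc libraries held 1.36%, 1.51% and 1.56% in gypsy2 and 0.893%, 1.09% and 1.01% in WT, and in pupal discs 1.23%, 1.39% and 1.58% in gypsy2 and 0.840%, 0.763% and 0.866% in WT. The gypsy2 libraries lay above all others of their stage. The edgeR log2 fold change was 0.67 ± 0.11 in embryos, 0.58 ± 0.087 against titled WT, 0.57 ± 0.14 in larval discs and 0.81 ± 0.094 in pupal discs (± SE, adjusted p = 0.00089, 0.00138, 0.0437 and 0.00183, n = 3 against 3). The larval call held under 5 of 9 settings. Of the 5 comparisons with WT or titled WT from the gypsy2 viewpoint, the bin was called in that of gypsy2 with titled WT only (0.53 ± 0.15, SE, edgeR adjusted p = 0.0274), under 5 of 9 settings. Without the bin 8 kb from PRE2, the Tpr2 share was still higher in gypsy2 over stages (log2 0.17, exact permutation p = 0.00025), with means of 4.17% and 3.97% in embryo gypsy2 and WT, 5.77% and 4.92% in larval gypsy2 and WT, and 5.70% and 4.96% in pupal gypsy2 and WT.

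The CG5953 bin 24 kb from PRE2 (16511001 to 16512000, with a coding exon of CG5953) lies directly before the left junction of HMS-Beagle shown above and had the highest WT share of the gene from both viewpoints. From PRE2 it held 0.376%, 0.442% and 0.417% in embryo gypsy2, 0.885%, 0.653% and 0.702% in gypsy1, 0.511%, 0.655% and 0.685% in titled WT and 0.675%, 0.575% and 0.689% in WT. In larval discs it held 0.367%, 0.253% and 0.314% in gypsy2 and 0.732%, 0.383% and 0.655% in WT, and in pupal discs 0.430%, 0.403% and 0.419% in gypsy2 and 0.668%, 0.854% and 0.662% in WT. The gypsy2 libraries lay below all others of their stage, and larval WT replicate 2 was again next to them. The edgeR log2 fold change was -0.62 ± 0.14 in embryos (adjusted p = 0.00617), -0.57 ± 0.12 against titled WT (adjusted p = 0.0105) and -0.76 ± 0.12 in pupal discs (adjusted p = 0.00825), with n = 3 against 3 (± SE). In larval discs it was -0.91 ± 0.24 (adjusted p = 0.0578), and without WT replicate 2 it was -1.15 (edgeR adjusted p = 0.00536). In larval discs the bin was called under 2 of 9 settings. Seen from the gypsy2 viewpoint the bin was lower in gypsy2 in all 3 stages, by -1.28 ± 0.21, -0.99 ± 0.20 and -0.95 ± 0.20 in embryos, larval and pupal discs (± SE, edgeR adjusted p = 0.00015, 0.0363 and 0.0320, n = 3 against 3), calls that held under 9, 4 and 5 of 9 settings. In gypsy1 the fold change was 0.23 ± 0.15 from PRE2 (± SE, edgeR adjusted p = 0.442), with values above and within the WT range.

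In the bins 8 and 24 kb away the gypsy2 libraries lay on the same side of WT from both viewpoints at all 3 stages. Both bins had met the rule of calls in the same direction in at least 2 stages from each viewpoint. That rule therefore partly sets this agreement, and both viewpoints were counted in the same libraries. The difference in step over stages rested on these bins: without both bins it was -0.021 (exact permutation p = 0.693), with means of 1.14 and 1.35 in embryo gypsy2 and WT, 1.26 and 1.31 in larval gypsy2 and WT, and 1.28 and 1.08 in pupal gypsy2 and WT. Without the bin 24 kb away, the CG5953 share was higher in gypsy2 over stages by 0.19 on the log2 scale, with means of 3.25% and 2.67% in embryo gypsy2 and WT, 4.14% and 3.41% in larval gypsy2 and WT, and 4.02% and 4.00% in pupal gypsy2 and WT. Both removals were chosen after the values of the bins were seen.

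The CG5953 bin 32 kb from PRE2 (16519001 to 16520000, which holds the right junction of HMS-Beagle) was higher in gypsy2 in embryos and larval discs. From PRE2 it held 0.138%, 0.166% and 0.186% in embryo gypsy2, 0.0544%, 0.0628% and 0.0689% in gypsy1, 0.122%, 0.110% and 0.0946% in titled WT and 0.0558%, 0.0539% and 0.0674% in WT. Larval libraries held 0.171%, 0.148% and 0.112% in gypsy2 and 0.0325%, 0.0668% and 0.0423% in WT, and in pupal discs 0.205%, 0.164% and 0.177% in gypsy2 and 0.239%, 0.150% and 0.207% in WT. The genotypes did not overlap in embryos and larval discs and overlapped in pupal discs, where WT itself was high. The edgeR log2 fold change was 1.501 ± 0.18 in embryos (adjusted p = 0.00011), 0.59 ± 0.16 against titled WT (adjusted p = 0.0332), 1.60 ± 0.30 in larval discs (adjusted p = 0.0140) and -0.079 ± 0.19 in pupal discs (adjusted p = 0.877), with n = 3 against 3 (± SE). The calls against titled WT and in larval discs held under 5 of 9 settings each. The deep titled WT libraries lay above the shallow WT embryo libraries in this bin.

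**Figure D3:**
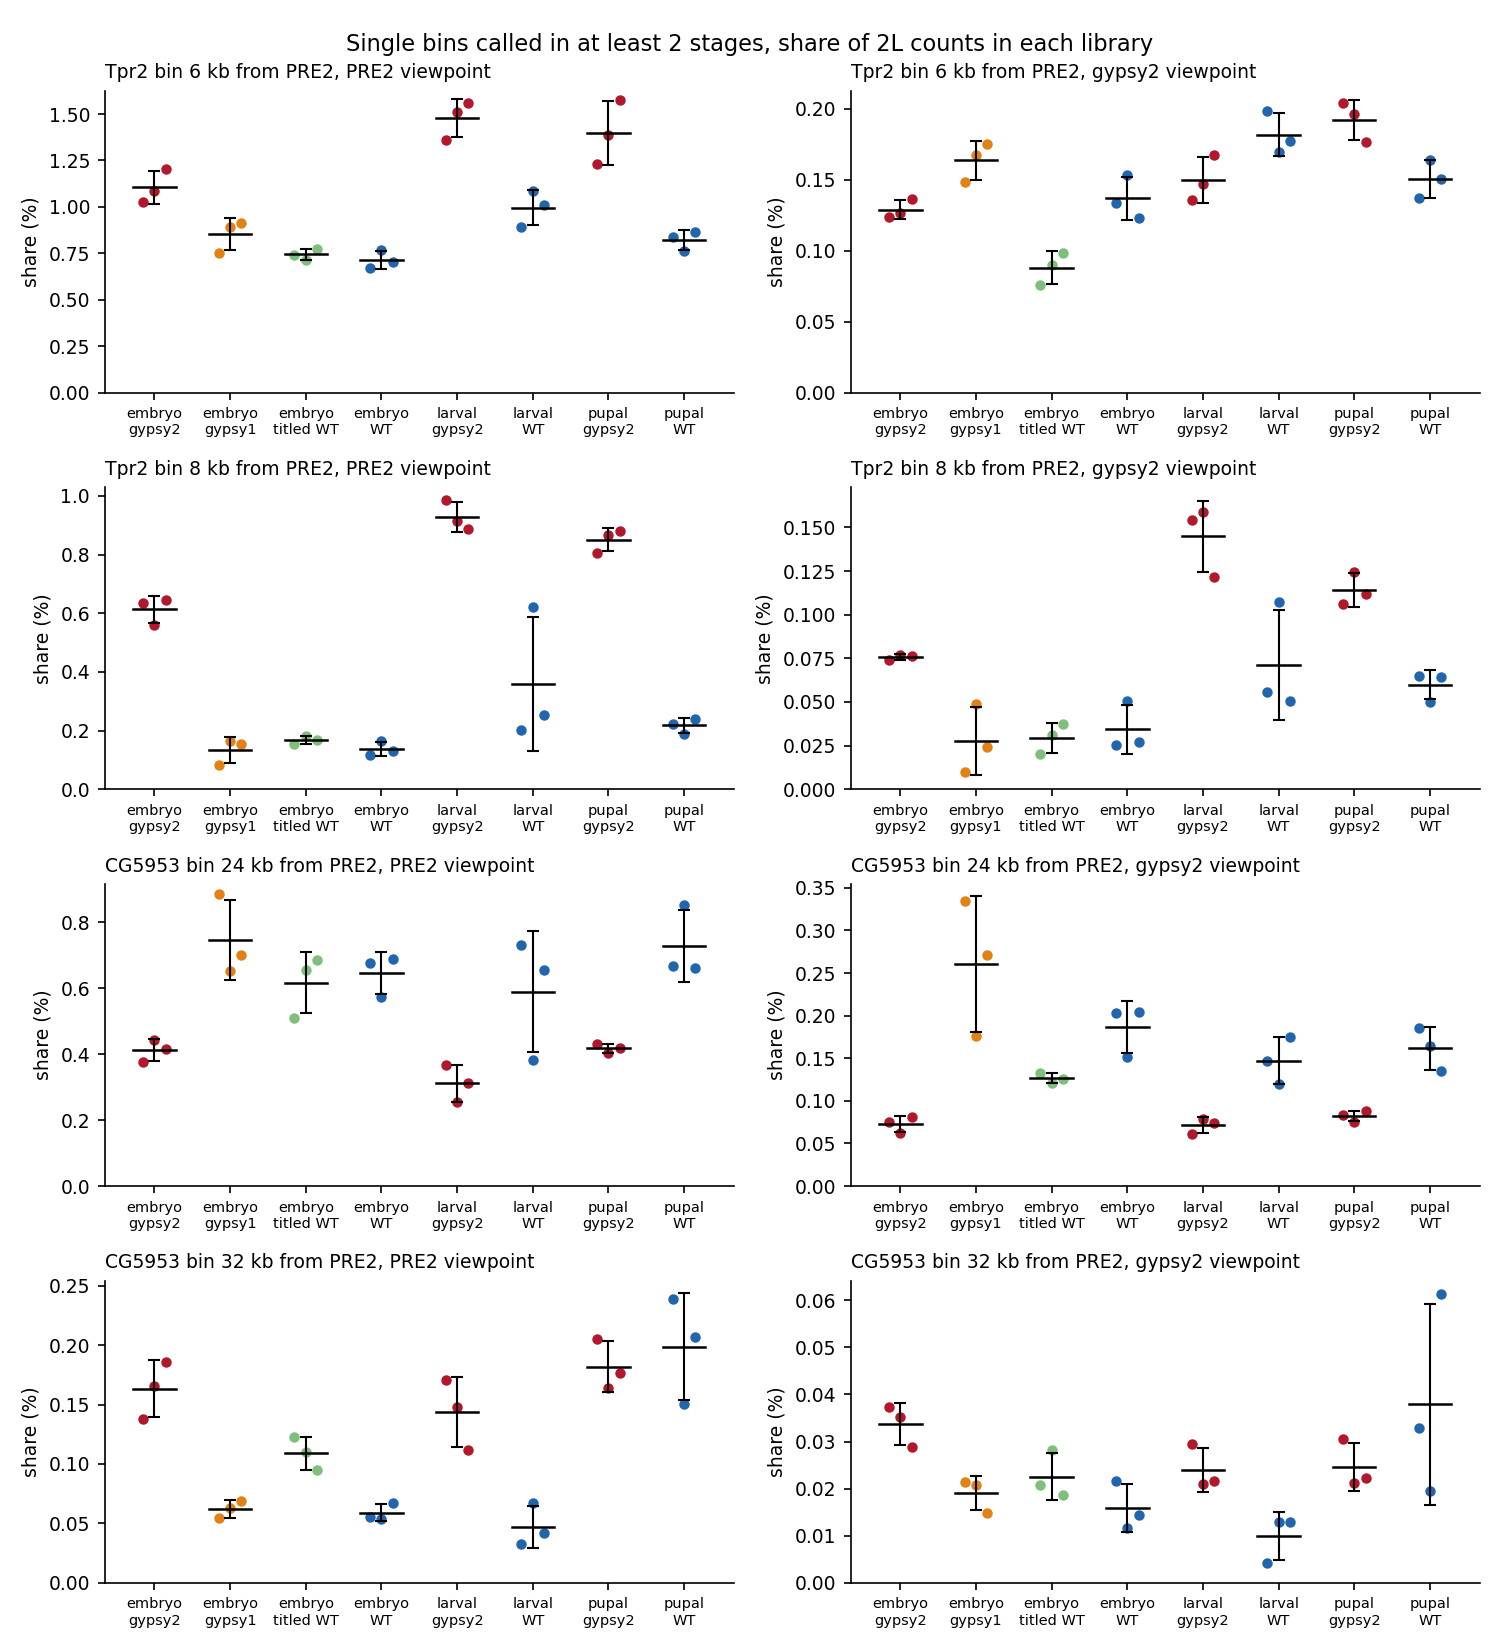
Share of 2L counts (%, y axes from 0) in 4 single bins, 6, 8, 24 and 32 kb from PRE2 (top to bottom), from PRE2 (left) and from the gypsy2 viewpoint (right), per library (points) with mean and SD (n = 3). In the bin 8 kb away, larval WT replicate 2 (0.621%) lies between larval gypsy2 and the other larval WT libraries from PRE2.

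The 2 bins at the border differed between embryo groups along depth as well as genotype. The last Tpr2 bin, which starts at 16507001, held 0.219% ± 0.011 from PRE2 in embryo gypsy2, 0.476% ± 0.10 in gypsy1, 0.364% ± 0.018 in titled WT and 0.435% ± 0.055 in WT (SD, n = 3 each). The first CG5953 bin held 0.248% ± 0.026 in gypsy2, 0.060% ± 0.019 in gypsy1, 0.194% ± 0.028 in titled WT and 0.096% ± 0.018 in WT (SD, n = 3 each). Embryo gypsy2 was thus the lowest group in the Tpr2 bin and the highest in the CG5953 bin, with titled WT next to it in both. The edgeR log2 fold changes of gypsy2 were -0.95 ± 0.12 and 1.40 ± 0.18 against WT (± SE, adjusted p = 0.00019 and 0.00015), and -0.72 ± 0.10 and 0.36 ± 0.14 against titled WT (± SE, adjusted p = 0.00104 and 0.128, n = 3 against 3). In larval discs they were -0.55 ± 0.16 and 0.76 ± 0.22 (± SE, edgeR adjusted p = 0.0775 and 0.0795, n = 3 against 3), and in pupal discs 0.017 ± 0.094 and 0.033 ± 0.22 (± SE, edgeR adjusted p = 0.937 and 0.949, n = 3 against 3).

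Counted over all 1-kb bins with edgeR (mean count at least 10), 8 of 33 tested members were higher and 5 lower in embryo gypsy2 from PRE2, where 11.5% and 10.9% of all tested bins were. Against titled WT 3 were higher and 3 lower of 33 (4.7% and 6.56% of all bins). In larval discs 2 of 31 were higher and none lower (0.706% and 4.47%), with 9 at an unadjusted p under 0.05, and in pupal discs 2 of 31 were higher and 1 lower (3.04% and 3.38%). For gypsy1 2 of 29 were higher and 2 lower (4.02% and 8.04%), and with the column number as a block 11 were higher and 2 lower, where 8.79% and 12.3% of all tested bins were. From the gypsy2 viewpoint 3 of 32 were higher and 7 lower in embryo gypsy2 (12% and 9.8%), and 5 higher and 3 lower of 34 against titled WT (7.54% and 7.98%). In larval discs none of 32 was higher and 1 lower (0.575% and 1.61%, 4 at an unadjusted p under 0.05), and in pupal discs 1 was higher and 1 lower of 32 (3.04% and 2.25%). For gypsy1 none of 30 was called from the gypsy2 viewpoint (0.73% higher and 0.73% lower), with 1 at an unadjusted p under 0.05, and none with the block (0.852% and 1.09%). No result about the members is drawn from these counts. In embryo gypsy2 against WT depth moves with genotype, and the counts were smaller against titled WT. The larval, pupal and gypsy1 counts of higher members from PRE2 were 2 bins each. The larval and gypsy1 counts also rested on single libraries. In larval discs no member was called higher without gypsy2 replicate 3, WT replicate 1 or WT replicate 3, 1 was without gypsy2 replicate 1 or 2, and 4 were without WT replicate 2. In pupal discs 2 were higher and 3 lower without WT replicate 2. For gypsy1 none was called higher without gypsy1 replicate 4 or WT replicate 1, 2 or 3. The 8 calls of embryo gypsy2 against titled WT from the gypsy2 viewpoint became 2 to 5 without gypsy2 replicate 5 or 6 or without any 1 titled WT library, the larval call from there was lost without any 1 library but WT replicate 2, and at most 1 pupal call was left without any 1 library. The members lie nearer to the viewpoint than most of the bins tested.

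**Figure D4:**
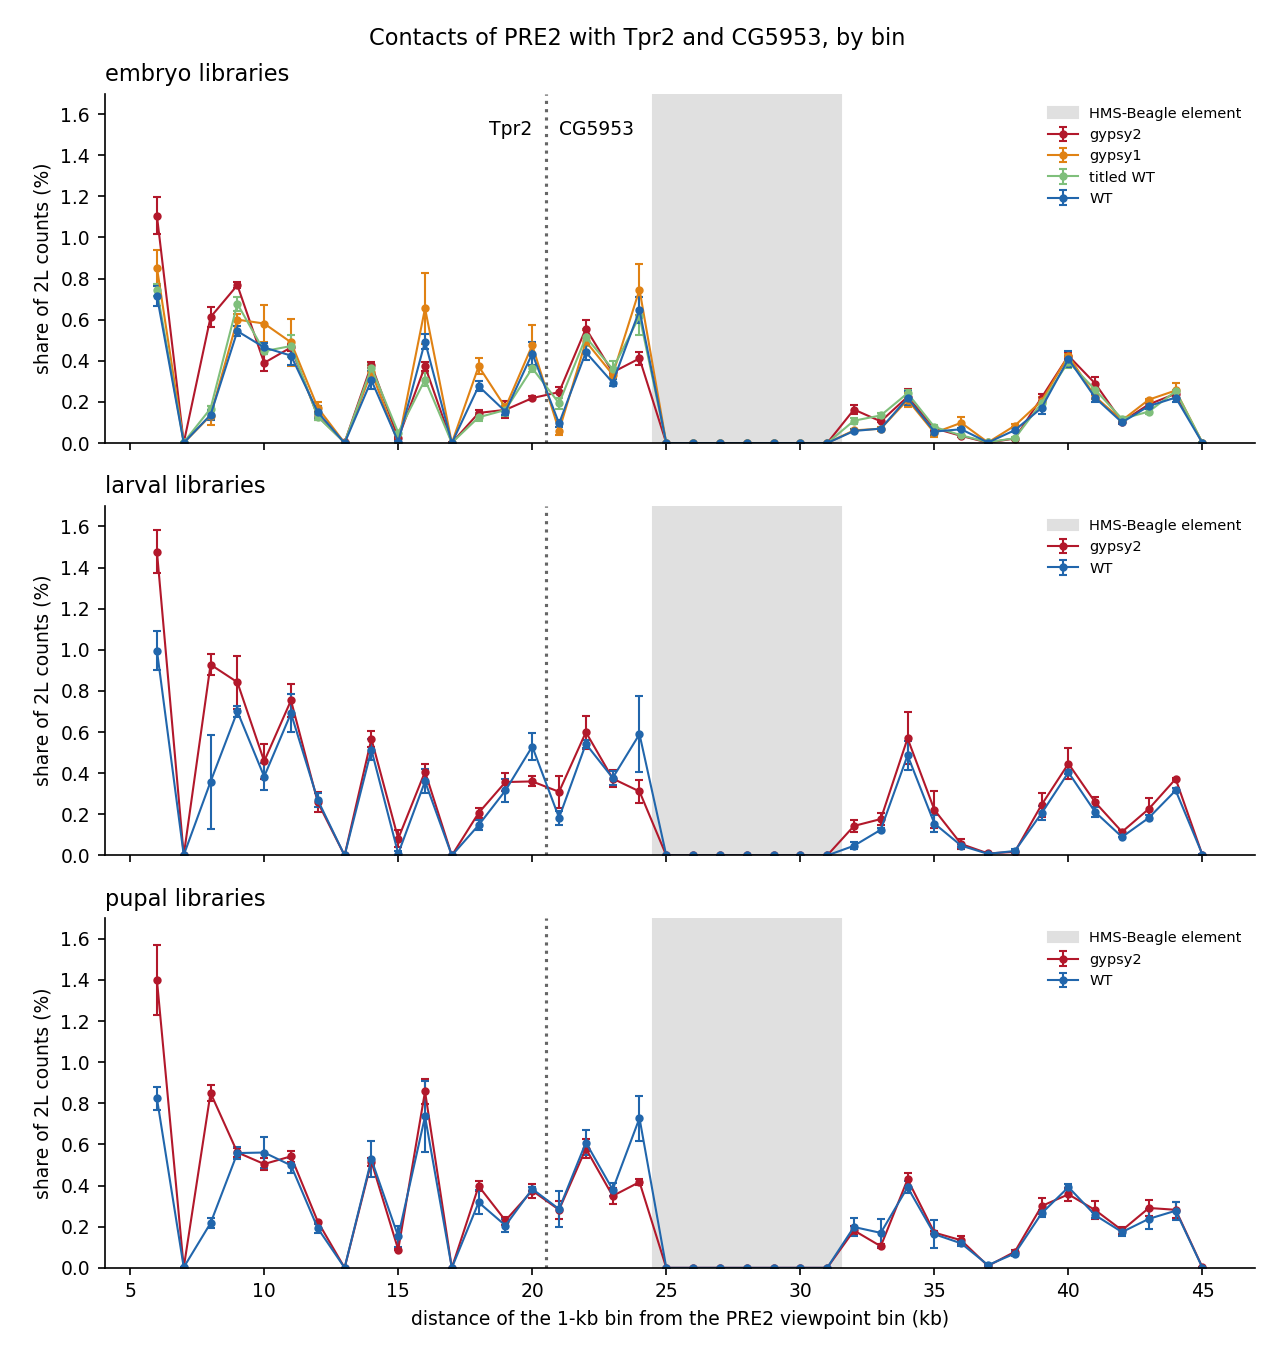
Mean share of 2L counts per 1-kb bin (%, y axis from 0) from PRE2 against distance of the bin from the PRE2 viewpoint bin (kb), in embryo, larval and pupal libraries, with SD bars (n = 3 per group). The dotted line is the border between Tpr2 and CG5953 and the grey band is HMS-Beagle, whose 7 bins held at most 1 count in any library; gypsy2 stands above WT at 6 and 8 kb and below it at 24 kb.

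In the windows counted from the gypsy2 viewpoint, the Tpr2 window that starts at 16500001 was lower in embryo gypsy2 than in WT (log2 fold change -0.44 ± 0.12, SE, edgeR adjusted p = 0.0021, n = 3 against 3). No member was higher and this 1 of 5 was lower, where 19.2% and 18.4% of all windows were. Against titled WT its fold change was -0.0058 ± 0.083 (SE, edgeR adjusted p = 0.945). No member window was called by edgeR against titled WT (20.8% of all windows were higher and 16% lower), in gypsy1 (0.8% and 0%), in larval discs (0% and 0%) or in pupal discs (8% and 2.4%), with 1 at an unadjusted p under 0.05 in each. For gypsy1 with the column number as a block 2 of 5 were higher and none lower, where 7.2% and 4.8% of all windows were.

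Between WT stages the called windows of both genes were all higher at the later stage. From PRE2, 2 of the 5 member windows were higher in larval discs than in embryos (15.2% of all windows were higher and 17.6% lower), 4 in pupal than in larval discs (12% and 10.4%) and 5 in pupal discs than in embryos (10.4% and 11.2%). These counts rested on single libraries: the 4 windows in pupal against larval discs became 0 without larval replicate 1 or pupal replicate 3, 1 without larval replicate 2 or pupal replicate 1, and 2 without pupal replicate 2. The 5 in pupal discs against embryos became 3 without embryo replicate 1 or pupal replicate 1, and the 2 in larval discs against embryos became 1 without embryo replicate 1. With windows over all of 2L, 0 and 1 were called in pupal against larval discs and in pupal discs against embryos. The window that starts at 16516001, which holds the right end of HMS-Beagle and the DNA after it, had the largest log2 fold change of the 5 in pupal discs against embryos, 1.25 ± 0.13 from PRE2 and 1.16 ± 0.17 from the gypsy2 viewpoint (± SE, edgeR, n = 3 against 3), beside medians of 0.056 and 0.023 over all windows. Seen from the gypsy2 viewpoint, 2 of 5 were higher in larval discs than in embryos (12.8% and 12.8%), none in pupal than in larval discs (6.4% and 10.4%, none at an unadjusted p under 0.05) and 3 in pupal discs than in embryos (13.6% and 12%). In 1-kb bins from PRE2, 12 of 31 members were higher and 4 lower in larval discs than in embryos (11% and 11% of all bins), 7 higher and 1 lower of 31 in pupal than in larval discs (2.06% and 1.03%), and 13 higher and none lower of 30 in pupal discs than in embryos (5.54% and 3.81%). From the gypsy2 viewpoint the counts were 7 higher and 1 lower of 30 (8.39% and 7.23%), none of 31 (0% and 0%, 9 at an unadjusted p under 0.05) and 2 higher and none lower of 31 (0.458% and 0.343%). The 1-kb counts from PRE2 moved as well: in pupal against larval discs none was called without larval replicate 3 or pupal replicate 1 and 4 without larval replicate 1, in pupal discs against embryos 2, 4 and 4 were called without embryo replicates 1, 2 and 3, and in larval discs against embryos 7 and 10 without embryo replicates 1 and 3. Leaving out 1 library moved the counts from the gypsy2 viewpoint to between 1 and 2 windows and 1 and 8 bins in larval discs against embryos, and to between 1 and 3 windows and 0 and 7 bins in pupal discs against embryos. These contrasts share the WT libraries among themselves and with the gypsy2 comparisons. In the contrasts of leg discs with embryos, stage cannot be told apart from tissue or depth. The bin 32 kb from PRE2, which lies in the window that starts at 16516001, held a 3.36-fold larger mean share in pupal WT (0.199% ± 0.045) than in embryo WT (0.059% ± 0.0073, SD, n = 3 each). In larval WT it held 0.047% ± 0.018, which overlapped with embryo WT, while that window was higher in larval discs. The deep titled WT embryos held 0.109% ± 0.014 (SD, n = 3 each).

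Set against the other side of PRE2, where *dac* lies, the 2 genes together took relatively more counts in gypsy2 than in WT in embryos and larval discs. The log2 of the summed member counts over those of the bins at like distances towards *dac* averaged -0.73 ± 0.0084 in embryo gypsy2, -0.83 ± 0.032 in titled WT and -0.90 ± 0.039 in WT (SD, n = 3 each). It averaged -0.51 ± 0.098 in larval gypsy2 and -0.80 ± 0.064 in larval WT, and -0.24 ± 0.042 in pupal gypsy2 and -0.28 ± 0.11 in pupal WT (SD, n = 3 each). The genotypes did not overlap in embryos and larval discs and overlapped in pupal discs (exact permutation p = 0.7). Over stages gypsy2 minus WT was 0.17 (exact permutation within stages, p = 0.00175), and gypsy1 minus WT was 0.21 in embryos without overlap (exact permutation p = 0.1). The 25 bins beyond CG5953 held little, a mean of 0.738% in embryo gypsy2 and 0.754% in embryo WT, 0.913% in larval gypsy2 and 0.855% in larval WT, and 1.07% in pupal gypsy2 and 0.862% in pupal WT. CG5953 over these bins was lower in pupal gypsy2 than in pupal WT without overlap (log2 difference -0.41, exact permutation p = 0.1) and higher in embryo gypsy2 than in embryo WT, also without overlap (0.17, exact permutation p = 0.1). Against titled WT the embryo difference was -0.021 (exact permutation p = 0.8), in larval discs it was 0.074 (exact permutation p = 0.8), and over stages these opposite directions averaged -0.055 (exact permutation p = 0.541).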

How the data were processed

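The 24 libraries of 4C-seq (embryos and larval or pupal leg discs) have 48 columns in 6 tables, 1 for each viewpoint and stage, and all columns were used. The authors deposited raw counts per 1-kb bin, without normalization. The submitters' processing notes name dm6 and Bowtie; enzyme, read filters and any removal of PCR copies were not stated in the sources read here, and PCR copies would raise single bins. The length of 2L was 23513711 in the tables and 23513712 in the reference. Each viewpoint was taken as the highest bin of its columns, and bins within 5 kb of it were left out.

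Shares and steps were compared by exact two-sided permutation of libraries (smallest p 0.1 for 3 against 3, 0.00025 within 3 stages), viewpoints by an exact sign-flip test. Windows of 8 kb and bins of 1 kb up to 500 kb away were tested where mean counts were 10 or more. The test was the quasi-likelihood test of edgeR 4.0.16 in R 4.3.3, with TMM. Windows and bins were called where the Benjamini-Hochberg adjusted p was under 0.05. DESeq2 1.42.0 was an alternative. The 5 member windows run from 16492001 to 16532000, so the last CG5953 bin lies in none of them. The first window starts at the Tpr2 bin that the shares from PRE2 leave out. On simulated counts for embryo gypsy2 against WT from PRE2, 20 of 20 windows changed by a log2 of 1 were recovered among 125 and 49 of 100 bins among 887. From PRE2, 8 of 100 bins were recovered for larval gypsy2 against WT, 14 for pupal gypsy2 against WT and 3 for WT pupal against larval. From the gypsy2 viewpoint it was 12 for larval gypsy2 against WT. There it was 1 of 100 bins among 888 for pupal gypsy2 against WT and 0 for WT pupal against embryo. Few calls by bin in these contrasts say little. Other steps used Python 3.11.15, numpy 2.4.6 and pandas 2.3.3.

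Bins were named where they had the highest or lowest WT share of their gene, lay at the border, or were called in the same direction in at least 2 stages for gypsy2 against WT. The members, lists and rules were chosen with earlier results of these data known. Embryo libraries titled WT with an insertion in the genotype field formed a separate group. The gypsy1 and WT embryo columns carry the same numbers (1, 3 and 4), and deviations from the group means over windows correlated between libraries of 1 number (0.54, 0.43 and 0.47 with PRE2 as viewpoint, 0.57, 0.56 and 0.15 with gypsy2), so the number was also used as a block for gypsy1; in the other groups it did not pair the libraries. No pair of replicates agreed within sampling noise (lowest chi-square per degree of freedom 9.28 over 48 pairs). Sequences and transposon positions are from RefSeq and gene positions from the Ensembl annotation, both of the dm6 assembly. Hi-C and CUT&RUN samples of the series were not analysed here.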

Additional observations from a re-analysis of the deposited data

Results flagged for a closer look

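The CG5953 share from PRE2 differed in direction between stages. Every embryo gypsy2 library lay above every WT library (log2 difference 0.14), and every pupal gypsy2 library lay below every WT library (log2 difference -0.094). The difference between these differences was -0.23 (exact permutation p = 0.005, adjusted p = 0.09 over 18 tests), so it missed the threshold. Against titled WT, whose depth was like that of embryo gypsy2, the embryo difference was -0.01, and without the bin 24 kb from PRE2 the pupal difference was 0.0054.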

How the results depend on the processing

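Differences are on the log2 scale, and counts are of member windows or bins called by edgeR unless DESeq2 is named. Of 970 values of 3 libraries against 3 under an alternative, 860 kept their direction. Of 200 over stages, 163 kept direction and side of the threshold, and of 134 viewpoint differences 129 did. Of 216 counts of windows 161 stayed within 1.5 times, and of 184 counts of bins 124 did. The others follow, and their cause was not tested except where the setting itself drops bins or libraries. The settings that keep only bins with a GATC outside HMS-Beagle, or that drop the bins 8 and 24 kb from PRE2, were chosen after seeing the data. With all 2L counts, viewpoint included, as denominator, the Tpr2 share from PRE2 was -0.94 for embryo gypsy2 against WT and -0.21 for gypsy2 against WT over stages. The CG5953 share from PRE2 was -1.02 for embryo gypsy2 against WT, -0.15 for larval gypsy2 against WT, -0.19 for WT pupal against larval and -0.45 for gypsy2 against WT over stages. There the CG5953 share from the gypsy2 viewpoint was -0.033 for WT pupal against larval. With only 2L counts within 500 kb as denominator, the Tpr2 share from PRE2 was 0.12 for WT pupal against larval. Then the CG5953 share from PRE2 was 0.035 for embryo gypsy2 against titled WT and 0.15 for gypsy2 against WT over stages. With only 2L counts over 200 kb away as denominator, the CG5953 share from PRE2 was -0.0012 for larval gypsy2 against WT and -0.026 for gypsy2 against WT over stages. Here the Tpr2 share from the gypsy2 viewpoint was -0.014 for embryo gypsy2 against titled WT, -0.13 for WT pupal against larval and -0.13 for gypsy2 against WT over stages. Also, the CG5953 share from the gypsy2 viewpoint was -0.17 for WT pupal against larval and -0.085 for gypsy2 against WT over stages. With 2 kb left out around the viewpoint, the Tpr2 share from PRE2 was 0.076 for WT pupal against larval. Likewise the CG5953 share from PRE2 was 0.016 for embryo gypsy2 against titled WT. The step from PRE2 was -0.028 for WT larval against embryo. With 10 kb left out around the viewpoint, the Tpr2 share from PRE2 was -0.20 for embryo gypsy2 against WT, -0.033 for embryo gypsy2 against titled WT, 0.058 for WT pupal against larval and 0.017 for gypsy2 against WT over stages. There the CG5953 share from PRE2 was 0.012 for embryo gypsy2 against titled WT and 0.10 for gypsy2 against WT over stages. Then the step from PRE2 was -0.38 for embryo gypsy2 against WT, -0.044 for embryo gypsy2 against titled WT, -0.082 for larval gypsy2 against WT and -0.086 for gypsy2 against WT over stages. Here the step PRE2 minus gypsy2 viewpoint was 0.092 in gypsy2. With bins capped at the 99th percentile, the CG5953 share from PRE2 was 0.0046 for embryo gypsy2 against titled WT and 0.095 for gypsy2 against WT over stages. Also, the step from PRE2 was -0.14 for embryo gypsy2 against WT and 0.034 for gypsy2 against WT over stages. With the median over bins, the Tpr2 share from PRE2 was -0.28 for embryo gypsy2 against WT and 0.096 for gypsy2 against WT over stages. Likewise the CG5953 share from PRE2 was 0.0036 for pupal gypsy2 against WT and 0.41 for gypsy2 against WT over stages. The step from PRE2 was -0.88 for embryo gypsy2 against WT, -0.40 for larval gypsy2 against WT, -0.13 for WT larval against embryo and -0.31 for gypsy2 against WT over stages. There the Tpr2 share from the gypsy2 viewpoint was 0.12 for pupal gypsy2 against WT, -0.065 for WT pupal against larval and -0.20 for gypsy2 against WT over stages. Then the CG5953 share from the gypsy2 viewpoint was 0.46 for embryo gypsy2 against WT, 0.021 for larval gypsy2 against WT and -0.073 for gypsy2 against WT over stages. Here the step from the gypsy2 viewpoint was 0.13 for embryo gypsy2 against titled WT, 0.18 for embryo gypsy1 against WT, -0.64 for WT larval against embryo, -0.49 for WT pupal against larval and -1.13 for WT pupal against embryo. Also, the step PRE2 minus gypsy2 viewpoint was 0.16 in gypsy2. Without the last Tpr2 bin, the Tpr2 share from PRE2 was 0.011 for WT pupal against larval. Likewise the step from the gypsy2 viewpoint was 0.061 for larval gypsy2 against WT and 0.011 for gypsy2 against WT over stages. With 3 bins on each side of the border, the step from PRE2 was -1.19 for embryo gypsy2 against WT, -0.41 for embryo gypsy2 against titled WT, -0.32 for larval gypsy2 against WT, -0.21 for WT larval against embryo and -0.43 for gypsy2 against WT over stages. The step from the gypsy2 viewpoint was -0.11 for pupal gypsy2 against WT, -0.16 for WT larval against embryo, -0.19 for WT pupal against larval, -0.35 for WT pupal against embryo and -0.67 for gypsy2 against WT over stages. There the step PRE2 minus gypsy2 viewpoint was 0.10 in WT. With 5 bins on each side of the border, the step from PRE2 was -0.67 for embryo gypsy2 against WT, -0.20 for WT larval against embryo, 0.030 for WT pupal against larval and -0.043 for gypsy2 against WT over stages. Then the step from the gypsy2 viewpoint was -0.012 for WT pupal against larval. With 8 bins on each side of the border, the step from PRE2 was -0.43 for embryo gypsy2 against WT, -0.025 for WT larval against embryo, 0.052 for WT pupal against larval, 0.027 for WT pupal against embryo and 0.039 for gypsy2 against WT over stages. After a straight-line fit of counts on distance, the step from PRE2 was -0.036 for embryo gypsy2 against titled WT, -0.035 for embryo gypsy1 against WT, -0.0082 for WT larval against embryo, 0.62 for WT pupal against larval and 0.61 for WT pupal against embryo. Here the step from the gypsy2 viewpoint was 0.50 for embryo gypsy2 against WT, 0.14 for embryo gypsy1 against WT, 0.35 for larval gypsy2 against WT, -0.41 for pupal gypsy2 against WT and 0.15 for gypsy2 against WT over stages. After subtraction of the step at like distances on the dac side, the step from PRE2 was -0.54 for embryo gypsy2 against WT, -0.39 for embryo gypsy2 against titled WT, -0.55 for embryo gypsy1 against WT, -0.57 for larval gypsy2 against WT, -0.31 for pupal gypsy2 against WT, -0.055 for WT larval against embryo and -0.47 for gypsy2 against WT over stages. Also, the step from the gypsy2 viewpoint was 0.0079 for embryo gypsy1 against WT, -0.36 for pupal gypsy2 against WT, -0.11 for WT pupal against larval and -0.27 for gypsy2 against WT over stages. Likewise the step PRE2 minus gypsy2 viewpoint was -0.29 in WT and -0.49 in gypsy2. With titled WT as the embryo control, the CG5953 share from PRE2 was -0.017 for embryo gypsy1 against WT. The step from PRE2 was 0.0019 for WT pupal against embryo. There the Tpr2 share from the gypsy2 viewpoint was -0.073 for gypsy2 against WT over stages. Then the CG5953 share from the gypsy2 viewpoint was -0.058 for gypsy2 against WT over stages. Here the step from the gypsy2 viewpoint was 0.025 for embryo gypsy1 against WT. Without the bin 8 kb from PRE2, the Tpr2 share from PRE2 was 0.0078 for WT pupal against larval. Also, the step from PRE2 was -0.070 for embryo gypsy2 against WT and 0.10 for gypsy2 against WT over stages. Likewise the Tpr2 share from the gypsy2 viewpoint was -0.056 for embryo gypsy2 against titled WT. Without the bin 24 kb from PRE2, the CG5953 share from PRE2 was 0.078 for embryo gypsy2 against titled WT, 0.0054 for pupal gypsy2 against WT and 0.19 for gypsy2 against WT over stages. The step from PRE2 was -0.062 for embryo gypsy2 against WT and 0.11 for gypsy2 against WT over stages. There the CG5953 share from the gypsy2 viewpoint was 0.058 for embryo gypsy2 against WT and -0.024 for gypsy2 against WT over stages. Then the step from the gypsy2 viewpoint was -0.0066 for pupal gypsy2 against WT, -0.0085 for WT larval against embryo and -0.17 for gypsy2 against WT over stages. Without both of these bins, the Tpr2 share from PRE2 was 0.0078 for WT pupal against larval. Here the CG5953 share from PRE2 was 0.078 for embryo gypsy2 against titled WT, 0.0054 for pupal gypsy2 against WT and 0.19 for gypsy2 against WT over stages. Also, the step from PRE2 was -0.21 for embryo gypsy2 against WT, -0.051 for larval gypsy2 against WT, -0.042 for WT larval against embryo and -0.021 for gypsy2 against WT over stages. Likewise the Tpr2 share from the gypsy2 viewpoint was -0.056 for embryo gypsy2 against titled WT. The CG5953 share from the gypsy2 viewpoint was 0.058 for embryo gypsy2 against WT and -0.024 for gypsy2 against WT over stages. There the step from the gypsy2 viewpoint was -0.087 for pupal gypsy2 against WT, -0.050 for WT larval against embryo and -0.27 for gypsy2 against WT over stages. With the replicate number as a block and titled WT as the embryo control, the Tpr2 share from the gypsy2 viewpoint was -0.073 for gypsy2 against WT over stages. Then the CG5953 share from the gypsy2 viewpoint was -0.058 for gypsy2 against WT over stages. With 4-kb windows in place of 8 kb, the 4-kb windows called from PRE2 numbered 3 for embryo gypsy2 against titled WT, 2 for larval gypsy2 against WT and 2 for WT pupal against larval. Here the 4-kb windows called from the gypsy2 viewpoint numbered 3 for embryo gypsy2 against WT, 2 for embryo gypsy2 against titled WT, 1 for WT larval against embryo and 2 for WT pupal against larval. With DESeq2, the 1-kb bins called from PRE2 numbered 6 for larval gypsy2 against WT and 5 for pupal gypsy2 against WT. Also, the 8-kb windows called from the gypsy2 viewpoint numbered 2 for embryo gypsy2 against WT. Likewise the 1-kb bins called from the gypsy2 viewpoint numbered 3 for larval gypsy2 against WT, 5 for pupal gypsy2 against WT, 3 for WT pupal against larval and 7 for WT pupal against embryo. With capped bins, the 8-kb windows called from PRE2 numbered 1 for embryo gypsy2 against WT and 0 for larval gypsy2 against WT. The 1-kb bins called from PRE2 numbered 1 for larval gypsy2 against WT. There the 1-kb bins called from the gypsy2 viewpoint numbered 1 for WT pupal against embryo. With a minimum mean count of 50, the 8-kb windows called from PRE2 numbered 0 for larval gypsy2 against WT. Then the 1-kb bins called from PRE2 numbered 6 for larval gypsy2 against WT. Here the 1-kb bins called from the gypsy2 viewpoint numbered 1 for WT pupal against embryo. Without TMM, the 8-kb windows called from PRE2 numbered 4 for embryo gypsy2 against WT, 2 for embryo gypsy2 against titled WT, 4 for embryo gypsy1 against WT and 3 for larval gypsy2 against WT. Also, the 1-kb bins called from PRE2 numbered 8 for embryo gypsy1 against WT. Likewise the 8-kb windows called from the gypsy2 viewpoint numbered 2 for embryo gypsy2 against WT, 1 for embryo gypsy2 against titled WT, 2 for pupal gypsy2 against WT, 1 for WT larval against embryo and 2 for WT pupal against larval. The 1-kb bins called from the gypsy2 viewpoint numbered 1 for pupal gypsy2 against WT. With the replicate number as a block in edgeR, the 8-kb windows called from PRE2 numbered 2 for embryo gypsy1 against WT and 0 for larval gypsy2 against WT. There the 1-kb bins called from PRE2 numbered 13 for embryo gypsy1 against WT. Then the 8-kb windows called from the gypsy2 viewpoint numbered 2 for embryo gypsy1 against WT. Here the 1-kb bins called from the gypsy2 viewpoint numbered 0 for larval gypsy2 against WT and 0 for pupal gypsy2 against WT. With windows over all of 2L, the 8-kb windows called from PRE2 numbered 0 for larval gypsy2 against WT, 0 for WT pupal against larval and 1 for WT pupal against embryo. Also, the 8-kb windows called from the gypsy2 viewpoint numbered 0 for embryo gypsy2 against WT, 0 for WT larval against embryo and 0 for WT pupal against embryo. With each replicate left out in turn, the Tpr2 share from PRE2 ran from -0.076 to 0.048 for WT pupal against larval. Likewise the CG5953 share from PRE2 ran from -0.030 to 0.0050 for embryo gypsy2 against titled WT. The step from PRE2 ran from -0.0047 to 0.15 for WT larval against embryo. There the Tpr2 share from the gypsy2 viewpoint ran from -0.0032 to 0.091 for embryo gypsy2 against titled WT. Then the CG5953 share from the gypsy2 viewpoint ran from -0.00032 to 0.12 for WT pupal against larval. Here the step from the gypsy2 viewpoint ran from -0.13 to 0.032 for embryo gypsy1 against WT, -0.15 to 0.092 for larval gypsy2 against WT, -0.039 to 0.15 for pupal gypsy2 against WT and -0.032 to 0.16 for WT pupal against larval. Also, the 8-kb windows called from PRE2 ran from 2 to 4 for embryo gypsy2 against WT, 0 to 1 for larval gypsy2 against WT, 1 to 3 for pupal gypsy2 against WT, 1 to 3 for WT larval against embryo, 0 to 3 for WT pupal against larval and 3 to 5 for WT pupal against embryo. Likewise the 1-kb bins called from PRE2 ran from 1 to 4 for embryo gypsy1 against WT, 0 to 6 for larval gypsy2 against WT, 3 to 5 for pupal gypsy2 against WT, 7 to 15 for WT larval against embryo, 0 to 10 for WT pupal against larval and 2 to 14 for WT pupal against embryo. The 8-kb windows called from the gypsy2 viewpoint ran from 1 to 2 for embryo gypsy2 against WT, 0 to 1 for embryo gypsy2 against titled WT, 0 to 1 for embryo gypsy1 against WT, 0 to 1 for larval gypsy2 against WT, 1 to 2 for WT larval against embryo and 1 to 3 for WT pupal against embryo. There the 1-kb bins called from the gypsy2 viewpoint ran from 2 to 7 for embryo gypsy2 against titled WT, 0 to 3 for larval gypsy2 against WT, 0 to 1 for pupal gypsy2 against WT, 1 to 8 for WT larval against embryo, 0 to 3 for WT pupal against larval and 0 to 7 for WT pupal against embryo. Numbers did not pair gypsy2 with its controls: correlations of same-numbered libraries from PRE2 were -0.22, 0.057 and -0.17 in larval discs, 0.056, 0.055 and 0.40 in pupal discs, and -0.033, 0.15 and -0.11 in embryos against titled WT. Depth moves with genotype where embryo gypsy2 is set against WT, and 3 libraries a group limit what can be called in single bins.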
